A study of Mus musculus with 8 samples.

Results

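Fibronectin and tenascin C are matrix proteins read by cells through integrins, and the expression of both ligands and of 6 of their receptor genes was followed in mouse skin tumour cells with more or less of the nuclear receptor NR2F2. The members were given by gene name: the ligand genes Fn1 and Tnc, the integrin alpha subunit genes Itga5, Itga9 and Itgav, and the beta subunit genes Itgb1, Itgb3 and Itgb6. Every probe set annotated to 1 of these genes alone was taken, which gave 21 probe sets of 28898 with a single gene, and all 8 genes were among the 13939 genes tested. The measurements came from 8 Affymetrix mouse PM strip arrays, 2 in each of 4 groups, hybridised with RNA from tumour cells sorted by flow cytometry for the epithelial surface protein Epcam. The GOF papillomas overexpressed NR2F2, and the promoter or allele that drives the overexpression is not given in the sources used here. Control papillomas were labelled wild type for NR2F2. The KO carcinomas were skin squamous cell carcinomas of K5CreER;NR2F2fl/fl genotype, in which a CreER recombinase under the keratin 5 promoter acts on floxed Nr2f2 alleles in keratin 5 expressing cells. Control carcinomas were Cre- and labelled wild type for NR2F2. Age, strain, the way the tumours were induced and whether replicates were separate animals are not given in the sources used here, so a p-value reflects the spread among the arrays, which may be technical.

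Integrins are paired receptors of 1 alpha and 1 beta subunit that tie the matrix outside the cell to the actin skeleton inside it. Itga5 pairs with Itgb1 to form the main fibronectin receptor, Itga9 pairs with Itgb1 to bind tenascin C, and Itgav pairs with Itgb1, Itgb3 or Itgb6 to bind fibronectin and other ligands. Itgb6 is largely restricted to epithelia, is low in resting skin and is known for binding fibronectin and tenascin C and for releasing active TGF-beta. Fibronectin and tenascin C are both typical of wound and tumour stroma, where fibroblasts make much of them, although epithelial cells can also make them.

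Values are log2 RMA values as deposited, and a difference of 1 on this scale is a 2-fold difference. Papilloma arrays had medians of 3.12 to 3.16 and carcinoma arrays of 5.08 to 5.15, so the tumour types were treated as normalized separately. No gene's level is compared between them in the text. The filter on low values and the choice of the brightest probe set did use the values of all 8 arrays together. Background was set on each array by the brightest of 44 controls of foreign sequence, and lay at 3.09 to 3.33 in papilloma and 4.95 to 5.01 in carcinoma. Replicates within a group correlated at 0.980 to 0.991 over all probe sets. On its brightest probe set Nr2f2 stood at 11.43 and 11.47 in GOF papillomas, against 2.80 and 2.55 in control papillomas, and at 4.774 and 4.996 in KO carcinomas, against 7.93 and 8.14 in control carcinomas, in the direction of every label. The keratinocyte gene Krt5 lay between 12.35 and 12.75 on every array. Epcam, the sorting marker, stood at 9.004 and 8.678 in GOF papillomas and at 10.17 and 10.57 in control papillomas (log2 fold change -1.53, SE 0.22, limma adjusted p = 0.0372).

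In KO carcinomas Fn1 (4.07-fold), Tnc (2.51-fold), Itgb3, Itgb1 and Itga9 had lower values than in control carcinomas on every array. Itga5 had higher ones there. In GOF papillomas Itgb3 (1.81-fold) and Itgav (1.17-fold) had higher values than in control papillomas on every array. Itgb1 (1.53-fold), Itgb6 (2.51-fold) and Itga5 (1.30-fold) had lower ones. Itga9, and Itga5 and Itgb3 in papilloma, lay near background. The share of all genes that differ on every array by any amount was not counted, so these separations have no background. They are listed as values and are not read as a result about the members. None of the 8 members passed the threshold in either comparison. The limma test, with Benjamini-Hochberg adjustment across the 13939 genes and a threshold of 0.05, called 0 members in GOF against control papillomas, where it called 1.21% of all genes, and 0 in KO against control carcinomas, where it called 0.0143%. At an unadjusted p under 0.05 there were 2 members in GOF papillomas and 4 in KO carcinomas, against 16.4% and 13.8% of all genes. Tested probe set by probe set over all 28898, 0 of the 21 member probe sets passed in GOF papillomas (background 0.384%) and 0 in KO carcinomas (background 0.00692%). At an unadjusted p under 0.05 there were 5 member probe sets in each comparison. The share of all probe sets at that level was not counted, so this 5 has no background beside it. An exact permutation test of 2 arrays against 2 cannot go below p = 0.333, so genes were also described by whether all 4 pairs of arrays differed one way by 1.5-fold or more. By this rule 1 member was higher and 0 were lower in GOF papillomas, where 3.9% of all genes were higher and 2.19% were lower. In KO carcinomas 0 members were higher and 3 were lower, where 1.42% of all genes were higher and 1.48% were lower. The median log2 fold change of the 8 members was 0.13 in GOF papillomas (all genes 0.02) and -0.45 in KO carcinomas (all genes 0.01).

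**Figure D1:**
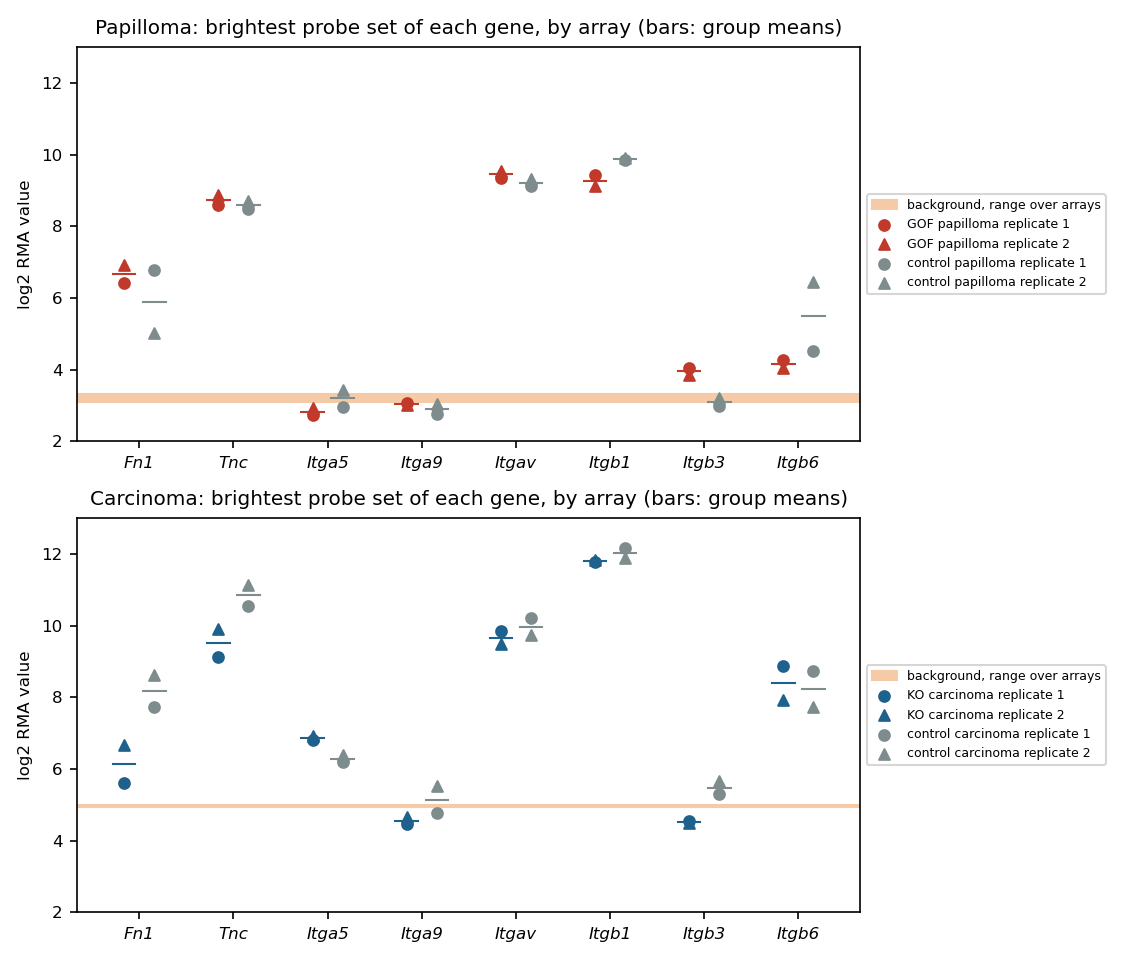
Log2 RMA values of the brightest probe set of each member gene on each array, with GOF (red) or KO (blue) arrays left of their controls (grey), short bars for group means and an orange band for the range of array backgrounds. In carcinoma the KO points of Fn1, Tnc and Itgb3 lie below both control points, and in papilloma the GOF points of Itgb3 lie above both control points.

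Fn1 encodes fibronectin and has 1 probe set here, 1426642_PM_at. In papilloma its values were 6.42 and 6.92 in GOF tumours, against 6.78 and 5.01 in control tumours. The groups overlapped, because 1 control was above 1 GOF array and the other was far below both. The means were 6.67 ± 0.35 in GOF and 5.90 ± 1.25 in control papillomas (SD, n = 2 each), with a log2 fold change of 0.77 (SE 0.64, 95% interval -0.76 to 2.30, limma adjusted p = 0.632). Without control papilloma replicate 2 the sign turned, to -0.11. In carcinoma Fn1 stood at 5.62 and 6.67 in KO tumours, against 7.73 and 8.62 in control tumours. Every KO array was at least 2-fold below every control array. The means were 6.15 ± 0.75 in KO and 8.17 ± 0.63 in control carcinomas (SD, n = 2 each), with a log2 fold change of -2.03 (SE 0.64, 95% interval -3.56 to -0.50, limma adjusted p = 0.249).

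Tnc encodes tenascin C, and its brighter probe set was 1416342_PM_at. In papilloma it stood at 8.59 and 8.87 in GOF tumours and at 8.49 and 8.72 in control tumours. These groups overlapped, and the log2 fold change was 0.12 (SE 0.31, 95% interval -0.61 to 0.85, limma adjusted p = 0.907). In carcinoma its values were 9.13 and 9.91 in KO tumours, against 10.56 and 11.13 in control tumours. Both KO arrays lay below both controls, with means of 9.52 ± 0.55 in KO and 10.84 ± 0.40 in control carcinomas (SD, n = 2 each) and a log2 fold change of -1.33 (SE 0.31, 95% interval -2.06 to -0.60, limma adjusted p = 0.165). The other Tnc probe set, 1456344_PM_at, was below background on all 8 arrays and gave no measure of the gene.

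The promoter of Tnc is shown because it is the ligand gene with lower KO values for which a RefSeq promoter window was given. It is the 250 bases before a RefSeq transcript start on the minus strand of GRCm38.p6, chr4:64047016-64047265, written 5′ to 3′ with a TATAAA motif in capitals, whose first base lies 126 bases before the start.
Tnc: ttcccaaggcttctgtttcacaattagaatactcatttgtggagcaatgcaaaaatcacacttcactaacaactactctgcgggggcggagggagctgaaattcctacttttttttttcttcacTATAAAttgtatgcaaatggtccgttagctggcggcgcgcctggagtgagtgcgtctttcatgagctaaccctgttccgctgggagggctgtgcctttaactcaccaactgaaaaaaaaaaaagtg
RefSeq windows of 250 bases before to 50 bases after a start were given for 6 of the 8 members, 8 windows in all, and for neither Fn1 nor Itgb3. Both Tnc windows, which start 79 bases apart and overlap, held the same TATAAA motif, found on either strand in 13.6% of all 32851 mouse windows. The letters AGGTCA, the nuclear receptor half-site to which NR2F2 is known to bind as direct repeats, were looked for on both strands. They were in 0 of the 8 member windows and in 16.3% of all windows. The repeat with 1 base between, AGGTCANAGGTCA, was in 0 member windows and in 0.0396% of all windows. These counts describe letters in short windows and say nothing about binding elsewhere.

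Itgb3, which pairs with Itgav to bind fibronectin, vitronectin and other ligands, was the member with the lowest p in each comparison. Its brighter probe set, 1455257_PM_at, stood at 4.05 and 3.86 in GOF papillomas, against 2.99 and 3.20 in control papillomas. Both GOF arrays were above background, as was 1 of the 2 controls, and the groups did not overlap. The log2 fold change was 0.86 (SE 0.17, 95% interval 0.45 to 1.26, limma adjusted p = 0.0717), and it passed the threshold under 3 of 19 alternative settings, with a filter set within each tumour type (adjusted p = 0.0487), with quantile normalization of all 8 arrays (adjusted p = 0.0411) and with a trended, robust variance prior (adjusted p = 0.0482). Over the 19 settings the adjusted p lay between 0.0411 and 0.360, and with the mean of both probe sets the log2 fold change was 0.52 (adjusted p = 0.305). In carcinoma the same probe set stood at 4.55 and 4.51 in KO tumours, against 5.31 and 5.66 in control tumours. Both KO arrays were below background and both controls above it, so the KO was at least 1.42-fold lower (log2 fold change -0.95, SE 0.17, 95% interval -1.36 to -0.55, limma adjusted p = 0.122). The other Itgb3 probe set, 1421511_PM_at, was below background on all papilloma arrays. In carcinoma it stood at 4.38 and 4.55 in KO and at 4.81 and 5.78 in control tumours, above background on 1 control array alone. Itgb3 passed the filter on low values only through the carcinoma arrays.

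Itgb1 encodes the beta subunit shared by most integrins of the epidermis, and 3 of its 5 probe sets were above background on all 8 arrays. On the brightest, 1452545_PM_a_at, GOF papillomas had 9.44 and 9.11 and control papillomas 9.85 and 9.92. Both GOF values lay below both controls, with a log2 fold change of -0.61 (SE 0.17, 95% interval -1.01 to -0.22, limma adjusted p = 0.139). The other detected probe sets ran the same way. 1426918_PM_at had 6.68 and 6.17 in GOF and 7.06 and 7.48 in control papillomas (-0.85, SE 0.23), and 1427771_PM_x_at had 4.08 and 3.64 in GOF and 4.34 and 4.39 in control papillomas (-0.51, SE 0.18). Probe sets with an x in their name can share probes with other transcripts. In carcinoma the brightest probe set stood at 11.78 and 11.83 in KO and at 12.15 and 11.88 in control tumours, a log2 fold change of -0.21 (SE 0.17, 95% interval -0.60 to 0.19, limma adjusted p = 0.667).

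Itgb6 encodes the beta subunit typical of epithelia. On 1422983_PM_at the GOF papillomas had 4.28 and 4.05, against 4.52 and 6.46 in control papillomas. The GOF values lay below both controls, but the controls themselves were far apart, and the log2 fold change of -1.33 had an SE of 0.66 (95% interval -2.91 to 0.26, limma adjusted p = 0.384). Without control papilloma replicate 2 it was -0.36. The other probe set, 1432281_PM_a_at, had closer controls, with 4.67 and 4.46 in GOF papillomas and 5.51 and 5.74 in control papillomas. There every GOF array was at least 1.5-fold below every control array. The difference was -1.06 on the log2 scale (SE 0.36, limma adjusted p over all probe sets = 0.268). In carcinoma Itgb6 stood at 8.87 and 7.92 in KO and at 8.72 and 7.73 in control tumours, and the second probe set at 7.94 and 7.04 in KO and at 7.88 and 7.06 in control tumours. The groups overlapped almost fully on both, with log2 fold changes of 0.17 (SE 0.66, 95% interval -1.42 to 1.75) and 0.02 (SE 0.36). The interval of 1422983_PM_at leaves differences of more than 2-fold either way possible.

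Itga5, the alpha subunit of the main fibronectin receptor, has 1 probe set, 1457561_PM_at. In papilloma it stood near background, at 2.72 and 2.93 in GOF and at 2.96 and 3.45 in control tumours, with 1 control array above background. In carcinoma it was the 1 member with higher KO values on every array, at 6.81 and 6.91 in KO tumours, against 6.19 and 6.38 in control tumours. The groups did not overlap, and the log2 fold change was 0.58 (SE 0.19, 95% interval 0.11 to 1.04, limma adjusted p = 0.272), the opposite sign to its ligand Fn1.

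Itgav, the alpha subunit common to the receptors of Itgb3 and Itgb6, was well above background on every array. Its brightest probe set, 1452784_PM_at, had 9.34 and 9.55 in GOF and 9.13 and 9.31 in control papillomas (log2 fold change 0.23, SE 0.22, 95% interval -0.29 to 0.75, limma adjusted p = 0.692). In carcinoma it had 9.85 and 9.47 in KO and 10.22 and 9.73 in control tumours (log2 fold change -0.31, SE 0.22, 95% interval -0.83 to 0.21, limma adjusted p = 0.602). Both intervals lie within a 2-fold difference either way. Over its 5 probe sets the log2 fold changes were between -0.04 and 0.24 in GOF papillomas and between -0.43 and 0.16 in KO carcinomas.

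Itga9, the alpha subunit of the tenascin C receptor, was hardly detected. On its brightest probe set, 1420860_PM_at, all papilloma arrays were below background, at 3.08 and 3.03 in GOF and at 2.76 and 3.06 in control tumours. In carcinoma it had 4.45 and 4.67 in KO and 4.76 and 5.53 in control tumours (log2 fold change -0.58, SE 0.26, limma adjusted p = 0.391). Control replicate 2 alone was above background there, so the size of this difference rests on 1 detected array. Of its other probe sets, 1450029_PM_s_at was below background on all 8 arrays and 1460285_PM_at above it on 1. Like Itgb3, Itga5 and Itga9 passed the filter on low values only through carcinoma arrays.

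**Figure D2:**
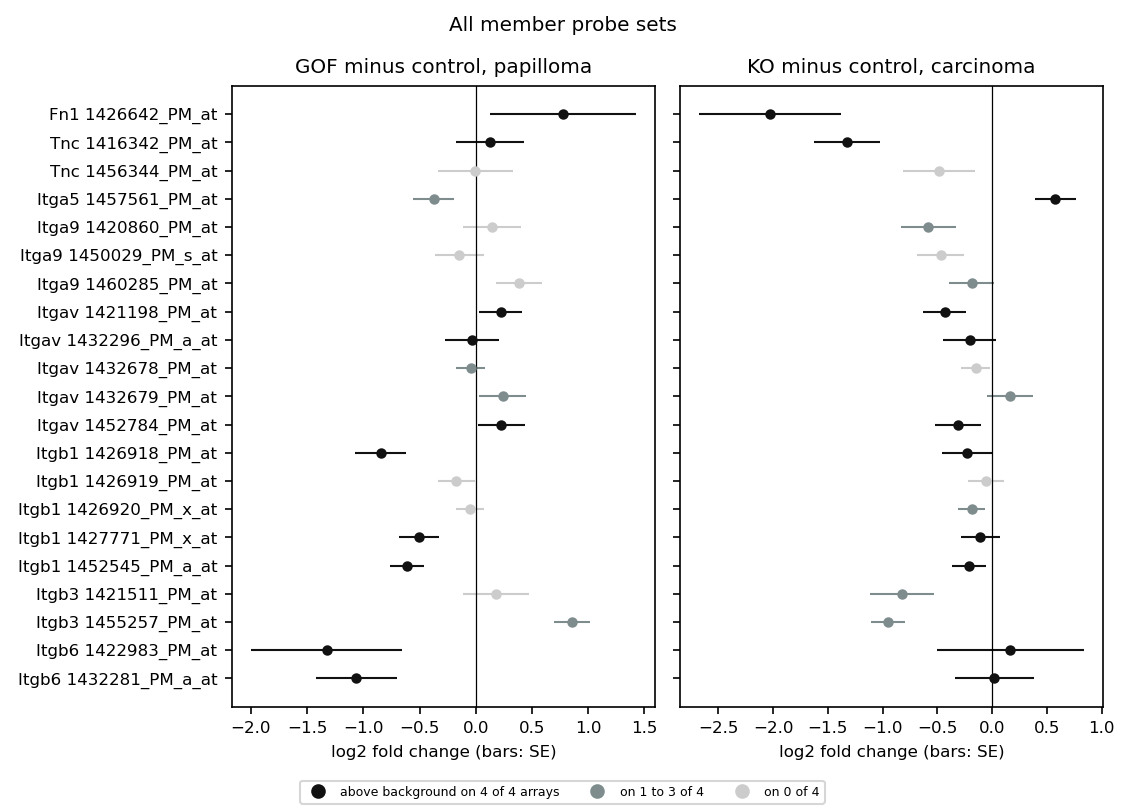
Log2 fold changes of all 21 member probe sets for GOF minus control in papilloma (left) and KO minus control in carcinoma (right), with bars for the SE of the limma fit and shading for the number of arrays above background in that tumour type. The 3 Itgb1 probe sets above background on all papilloma arrays lie left of 0 in papilloma, and the Fn1 and brighter Tnc probe sets lie left of 0 in carcinoma.

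The comparisons of papilloma and carcinoma share no control arrays, so the GOF effect was also set against the KO effect in 1 fit. For Itgb3 the effects had opposite signs and differed by 1.81 on the log2 scale (SE 0.24, limma adjusted p = 0.0545), just short of the threshold. The difference passed the threshold under 3 of 18 alternative settings, with a filter set within each tumour type (adjusted p = 0.0458), with a trended, robust variance prior (adjusted p = 0.0242) and without control carcinoma replicate 1 (adjusted p = 0.0241). Over the 18 settings it lay between 1.41 and 1.98, with adjusted p between 0.0241 and 0.250. For Fn1 the difference was 2.80 (SE 0.91, adjusted p = 0.257) and for Tnc 1.45 (SE 0.43, adjusted p = 0.231). For Itga5 it was -0.95 (SE 0.27, adjusted p = 0.221). The count of members past the threshold was 0 by limma, against 0.0789% of all genes, and 4 at an unadjusted p under 0.05, against 14.2% of all genes.

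Markers of other cell types were present in the sorted samples and moved with some of these values. In bulk RNA, fewer cells of a type and less RNA per cell cannot be told apart. The 15 fibroblast genes had mean log2 values of 7.36 and 7.56 in GOF and 7.26 and 6.15 in control papillomas, and of 5.77 and 6.31 in KO and 6.16 and 7.67 in control carcinomas. Their summed linear values were 9000.2 and 11171.5 in GOF and 9112.2 and 4518.1 in control papillomas, and 2869.5 and 4610.4 in KO and 3524.2 and 8975 in control carcinomas. Of 12 tested fibroblast genes, 0 passed the threshold in either comparison, 12 had positive log2 fold changes in GOF papillomas (median 0.82) and 12 had negative ones in KO carcinomas (median -1.07). On each array between 9 and 13 of the 15 were above background. Col1a2 and Fap were below background on all 8 arrays, and Pdgfra on all but GOF papilloma replicate 2.

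In papilloma Fn1 was lowest on control replicate 2, where the fibroblast list was also lowest, while Tnc was lowest on control replicate 1. In carcinoma the fibroblast mean was 6.31 on KO replicate 2 and 6.16 on control replicate 1. On the same 2 arrays Fn1 stood at 6.67 and 7.73, and Tnc at 9.91 and 10.56. Without control carcinoma replicate 2, which had the highest fibroblast and macrophage levels, the log2 fold changes in the KO were -1.58 for Fn1 (limma adjusted p = 0.559), -1.04 for Tnc (0.349) and -0.78 for Itgb3 (0.223). The part of fibroblast RNA in these values was not tested.

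The macrophage and endothelial lists separated the papilloma groups in which Itgb3 differed. The 14 macrophage and monocyte genes had means of 5.41 and 6.61 in GOF and 3.21 and 3.14 in control papillomas, with 14 and 14 genes above background in GOF and 6 and 8 in control papillomas. Of these genes 3 rose past the threshold in GOF papillomas. Lyz2 and Ctss, below background on both control arrays, were at least 33.6-fold and at least 19.8-fold higher, and C1qc had a log2 fold change of 3.96. In carcinoma the macrophage means were 5.27 and 5.54 in KO and 5.41 and 6.94 in control tumours, and 0 of 14 genes passed. The 12 endothelial genes had means of 4.982 and 5.102 in GOF and 3.43 and 3.23 in control papillomas, and 5 of 11 tested rose, Emcn, Plvap, Egfl7, Flt1 and Cdh5. In carcinoma the endothelial means were 4.91 and 5.05 in KO and 5.14 and 5.97 in control tumours. Summed linear values of the macrophage list were 843.7 and 1886.5 in GOF and 133 and 128.5 in control papillomas, and those of the endothelial list 487.7 and 538.6 in GOF and 137.6 and 122.3 in control papillomas. Itgb3 is known to be expressed by platelets, macrophages and endothelial cells as well as epithelia, and the part of these cells in its values was not tested.

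Among 5 measured platelet and megakaryocyte genes, Pf4 stood at 5.50 and 7.20 in GOF and at 2.89 and 3.29 in control papillomas (log2 fold change 3.26, SE 0.64, limma adjusted p = 0.0717), while Ppbp was below background on all papilloma arrays and Gp9 on all but control replicate 2. Itga2b, the platelet partner of Itgb3, stood at 4.49 and 4.41 in GOF and at 4.17 and 4.13 in control papillomas. Of the 7 measured pericyte and smooth muscle genes 0 of 6 tested passed, and the list means were 5.55 and 5.33 in GOF and 4.54 and 4.49 in control papillomas, and 5.15 and 5.96 in KO and 5.83 and 6.91 in control carcinomas. The pericyte gene Rgs5 differed most, at 8.33 and 7.62 in GOF and at 3.23 and 3.52 in control papillomas (log2 fold change 4.60, SE 0.85, limma adjusted p = 0.0635). The T cell list lay at 3.001 and 3.029 in GOF and 2.86 and 2.97 in control papillomas, with Cd3e below background on all 8 arrays. The melanocyte list lay at 2.88 and 2.88 in GOF and 3.11 and 3.09 in control papillomas. The keratinocyte list was at 10.24 and 10.12 in GOF and 10.57 and 10.72 in control papillomas, where Epcam and Krt15 fell past the threshold, and at 11.04 and 11.11 in KO and 11.19 and 11.07 in control carcinomas.

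**Figure D3:**
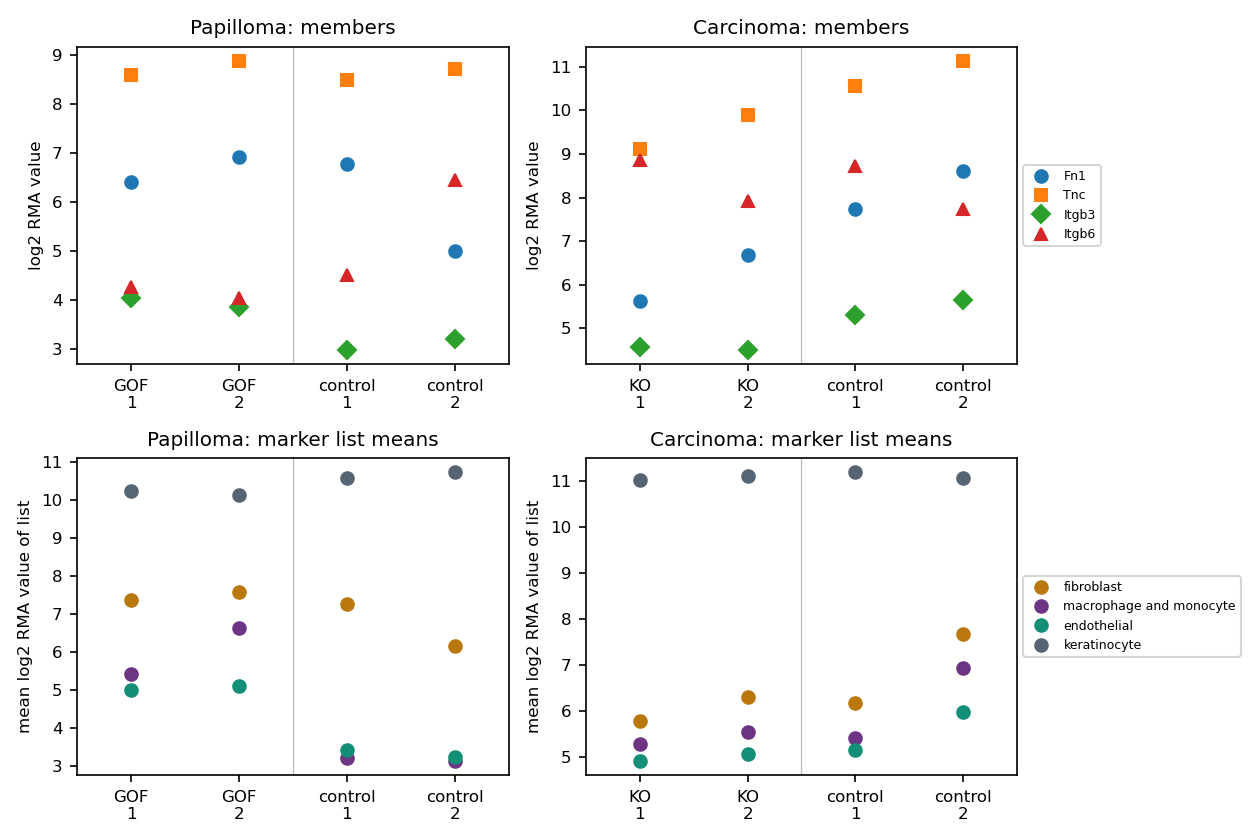
Log2 RMA values of Fn1, Tnc, Itgb3 and Itgb6 on each array (top) and mean log2 RMA values of 4 marker lists on the same arrays (bottom), with GOF or KO arrays left of their controls. Control papilloma replicate 2 has the lowest fibroblast mean and the lowest Fn1 in papilloma, and the macrophage and endothelial means separate GOF from control papillomas. Control carcinoma replicate 2 has the highest fibroblast mean and the highest Fn1 in carcinoma. KO carcinoma replicate 2 has a higher fibroblast mean than control carcinoma replicate 1 and a lower Fn1, though not every fibroblast gene is higher on it.

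Of 20 other integrin subunit genes, 15 were tested, and 0 passed the threshold by limma in either comparison. The 15 had a median log2 fold change of 0.01 in GOF papillomas and -0.13 in KO carcinomas. Itgb2, the beta subunit of leukocyte integrins, stood at 4.17 and 5.56 in GOF and at 3.18 and 3.23 in control papillomas, at least 1.5-fold apart in every pair (log2 fold change 1.66, SE 0.68, limma adjusted p = 0.294). In carcinoma it stood at 5.85 and 6.42 in KO and at 6.05 and 7.97 in control tumours (-0.88, SE 0.68, limma adjusted p = 0.658). Itga2, a collagen receptor subunit of keratinocytes, stood at 3.59 and 4.08 in GOF and at 4.59 and 6.10 in control papillomas (-1.51, SE 0.47, limma adjusted p = 0.181). Itga7, a laminin receptor subunit, had log2 fold changes of 0.83 in GOF papillomas and 0.53 in KO carcinomas (limma adjusted p = 0.277 and 0.549). Itgb7, another leukocyte beta subunit, had log2 fold changes of 0.67 in GOF papillomas and 0.76 in KO carcinomas (limma adjusted p = 0.241 and 0.254).

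Of 29 other ligands of these integrins 22 were tested, and 0 passed the threshold in KO carcinomas. Among them 19 had negative and 3 positive log2 fold changes there, where 48.9% of all genes were negative, and the median was -0.56, against 0.01 for all genes. In the same arrays all 12 tested fibroblast genes were negative, with a median of -1.07, and their part in these values was not tested. All tested macrophage (14), endothelial (11), pericyte and smooth muscle (6) and platelet (4) genes were negative there too. So were 8 of 9 keratinocyte, 4 of 6 T cell and 1 of 3 melanocyte genes, so a lean to negative values was not particular to the ligands. At least 1.5-fold lower in every pair of carcinoma arrays were 4 of the 22, Vcan, Ctgf, Tgfb3 and Adam12, against 1.48% of all genes. Vcan, which encodes the proteoglycan versican, stood at 6.01 and 5.74 in KO and at 7.61 and 8.24 in control carcinomas (log2 fold change -2.05, SE 0.47, limma adjusted p = 0.165). Ctgf, a matricellular protein gene, stood at 4.41 and 5.50 in KO and at 7.06 and 7.19 in control carcinomas (-2.17, SE 0.35, limma adjusted p = 0.122). Tgfb3, whose latent form is a ligand of Itgav receptors, stood at 6.9999 and 7.1267 in KO and at 9.42 and 8.63 in control carcinomas (-1.96, SE 0.29, limma adjusted p = 0.119). In GOF papillomas the same list had a median of 0.02 and 0 genes past the threshold. There Npnt, which encodes the matrix protein nephronectin, stood at 4.34 and 3.94 in GOF and at 6.10 and 6.90 in control papillomas (-2.37, SE 0.49, limma adjusted p = 0.0794). Adam15, a membrane protease that binds integrins, and Tnn, which encodes tenascin N, had log2 fold changes of 0.84 and 0.72 in GOF papillomas (limma adjusted p = 0.0993 and 0.626).

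Of the 29 genes of integrin adhesion signalling 26 were tested, and 1 passed in each comparison. Tns3, a tensin that links integrin tails to actin, fell in GOF papillomas, with 5.84 and 5.77 in GOF and 7.44 and 7.02 in control tumours (log2 fold change -1.43, SE 0.19, limma adjusted p = 0.0337). Its call ended without any 1 of the papilloma or KO arrays (adjusted p between 0.0542 and 0.223) and with the mean of its probe sets (-0.80, adjusted p = 0.0710). Fermt2, which encodes kindlin-2, an activator of integrins through their beta tails, fell in KO carcinomas, with 5.65 and 5.83 in KO and 8.02 and 7.82 in control tumours (-2.18, SE 0.14, limma adjusted p = 0.0123). That call ended without any 1 of the KO or papilloma arrays (adjusted p between 0.0582 and 0.120), in a fit of the carcinoma arrays alone (0.351) and with the mean of its probe sets (-1.38, adjusted p = 0.0745). Of the 26 genes 20 had negative log2 fold changes in KO carcinomas, against 48.9% of all genes, with a median of -0.18. Most of the marker lists leaned the same way in these carcinomas. Tns1, another tensin, had -1.44 there (SE 0.36, limma adjusted p = 0.188). Tns3 was lower in the KO as well, at 9.50 and 9.22 against 10.04 and 9.83 in control carcinomas (-0.57, SE 0.19, limma adjusted p = 0.265). In GOF papillomas the median was 0.00, the kinase gene Src had -0.67 (SE 0.18, limma adjusted p = 0.132) and the parvin gene Parvb 0.69 (SE 0.51, limma adjusted p = 0.579).

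Of 16 partners of fibronectin and matrix assembly 12 were tested, and 0 passed the threshold in either comparison. Their median log2 fold change was 0.05 in GOF papillomas and -0.32 in KO carcinomas, where 11 of 12 were negative, against 48.9% of all genes. Most of the marker lists were mainly negative in the KO as well. Tgm2, the transglutaminase that cross-links fibronectin, stood at 6.34 and 6.58 in KO and at 6.98 and 8.76 in control carcinomas (-1.41, SE 0.53, limma adjusted p = 0.314). Lox, the lysyl oxidase gene, Thy1, a surface protein of fibroblasts, and Col5a1, a fibrillar collagen gene, had log2 fold changes of 1.09, 0.70 and 1.00 in GOF papillomas and -1.26, -1.06 and -0.86 in KO carcinomas. Thy1 and Col5a1 are also on the fibroblast list. All adjusted p of these 3 genes were between 0.525 and 0.725.

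**Figure D4:**
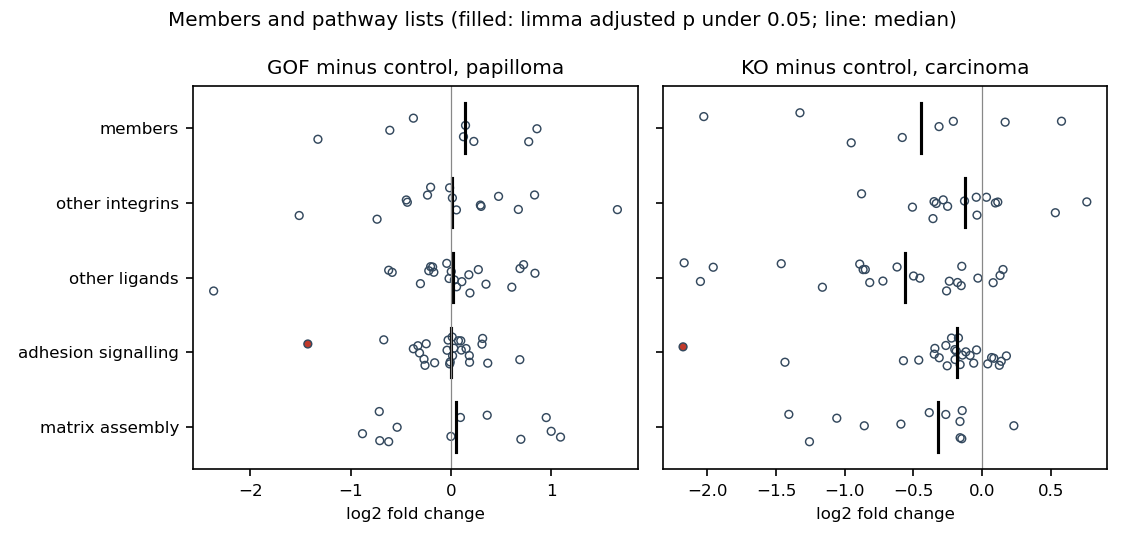
Log2 fold changes of the 8 members and of the tested genes of 4 pathway lists for GOF minus control in papilloma (left) and KO minus control in carcinoma (right), with vertical lines at list medians and filled points for genes past the limma threshold. The filled points are Tns3 in papilloma and Fermt2 in carcinoma, and the medians in carcinoma lie left of 0 in every row.

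The genes with patterns most like those of Fn1, Tnc and Itgb6 were found by the root-mean-square difference of log2 values over the 8 arrays, each tumour type centred on its own mean. Nearest to Fn1 was Aebp1, a collagen-binding protein gene of fibroblasts, at 0.13, against a spread of Fn1 itself of 0.96 and a median over all genes of 0.98. Next came Spon1 (0.30), Col5a3 (0.33), Nid1 (0.35) and Hexa (0.36). Spon1, Col5a3 and Nid1 encode matrix proteins, and Hexa a lysosomal enzyme. Nearest to Tnc, whose own spread was 0.54, were Ccpg1 (0.19), Tacc1 (0.19), Nupr1 (0.19), Fmnl1 (0.20) and Acvr1b (0.20). Nearest to Itgb6, whose own spread was 0.76, were Zfp655 (0.31), Micall1 (0.32), Guca2a (0.33), Krt27 (0.34) and Klk7 (0.36), of which Krt27 encodes a hair follicle keratin and Klk7 an epidermal protease. These likenesses over 8 arrays are descriptions and share the arrays with the values above.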

How the data were processed

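Per the labels, the authors hybridised RNA of sorted cells to Affymetrix mouse PM strip arrays and normalized with RMA. The deposited table holds log2 RMA values for 45141 probe sets on 8 arrays. The submitters' processing notes name RMA and affy, and give no versions. The 104 Affymetrix control probe sets were left out of the tests. By the platform annotation 28898 probe sets had 1 gene symbol, 551 several and 15588 none, and 28689 were matched to RefSeq by Entrez number. Groups and replicate numbers came from the titles.

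Probe sets above the median of all values (log2 4.23) on 2 or more of the 8 arrays were kept, and the brightest single-gene probe set then stood for each of 13939 genes. limma 3.58.1 in R 4.3.3 (lmFit, eBayes) fitted 1 mean per group over all 8 arrays, with 4 residual and 2.67 prior degrees of freedom, and p-values were adjusted by Benjamini-Hochberg. A second fit took all 28898 probe sets without a filter. The script was tested on simulated data. A fold against a group wholly below background is a lower bound, computed against the higher of background and the probe set's value. Precision is limited by the small number of arrays. Members and gene lists were chosen with earlier results of these data known. Named list genes were those past the threshold and, in each comparison, the 3 with the largest absolute log2 fold change, with Adam12, Gp9, Ppbp and the marker genes named after their values were seen. Itga11, Itgad, Itgb8, Spp1, Thbs1, Fbn1, Ptk2, Fermt1, Actn4 and Sdc1 were not analysed here. Alternatives varied the filter, the choice of probe set, the scaling, the variance prior, the arrays fitted and a replicate block.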

Additional observations from a re-analysis of the deposited data

How the results depend on the processing

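In KO against control carcinomas 0 members passed the threshold under any alternative run, with the replicate number as a block included. In GOF against control papillomas 1 member, Itgb3 (higher), passed with a filter within each tumour type, with quantile normalization of all 8 arrays and with a trended, robust variance prior, and 0 otherwise. For the GOF effect minus the KO effect 1 member, Itgb3, passed with the filter within each tumour type and with the trended, robust prior, and leaving out 1 array at a time gave 0 to 1, the 1 being without control carcinoma replicate 1. Member probe sets past the threshold in the KO were 0 to 1 on leaving out 1 array, the 1 being Itgb3 1421511_PM_at (lower) without control carcinoma replicate 1. Members at least 1.5-fold apart in every pair in GOF papillomas, 1 as reported, were 0 with the mean of probe sets, 5 for any difference in every pair, 0 at 2-fold, and 1 to 3 on leaving out 1 array (3 without control papilloma replicate 1, 2 without GOF replicate 1). In KO carcinomas, 3 as reported, they were 1 with the mean of probe sets, 6 for any difference, 1 at 2-fold and 3 to 4 on leaving out 1 array. Shares of all genes were counted for the 1.5-fold rule on all 8 arrays alone. The other counts of members apart therefore have no background and are not read as a result about the members. Signs turned, with no member past the threshold, for Fn1 in the GOF (-0.11 without control papilloma replicate 2, up to 1.66 without replicate 1), Itga9 in the GOF (-0.0023 without control papilloma replicate 1, up to 0.29), Tnc in the GOF (-0.0186 without GOF replicate 2, up to 0.27) and Itgb6 in the KO (-0.33 without control carcinoma replicate 2, -0.31 without KO replicate 1, up to 0.66). Every other member fold change kept its sign in the alternatives run. The calls of other genes named in the text kept their signs but were lost in 4 to 12 alternatives each, mostly on leaving out 1 array. With the replicate block the adjusted p was 0.0632 for Tns3 and 0.151 for Fermt2. The replicate number as a block gave 0 members in each comparison, and 3 and 0 genes in all for GOF and KO, against 169 and 2 without it. Deviations of arrays with the same number correlated at 0.0018 in papilloma and 0.13 in carcinoma, and the labels state no pairing, so the number was not treated as one. For Itgb3 in the GOF the block gave an adjusted p of 0.146. Counts over all genes moved with single arrays too, between 1 and 298 in the GOF and 0 and 121 in the KO. Leaving out an array leaves a group with 1 array, which is assumed to vary like the others. Itga9, and Itga5 and Itgb3 in papilloma, lie near background, which limits what these arrays can show of them.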

Other observations

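Integrin subunits of the epidermal basal layer, chosen here after their values were seen, stood beside Itgb1 in papilloma. Itga3, the laminin receptor partner of Itgb1, had 8.49 and 8.33 in GOF and 9.07 and 8.63 in control papillomas (log2 fold change -0.44, SE 0.19, limma adjusted p = 0.322). Itga6 and Itgb4, which pair in hemidesmosomes, had log2 fold changes of -0.45 (SE 0.20, limma adjusted p = 0.342) and -0.74 (SE 0.28, limma adjusted p = 0.252). The GOF values of all 3 lay below both controls, and 0 of the 3 passed the threshold. The share of all genes separated in this way was not counted. Other subunits did not run this way. Itgb5 overlapped, at 7.46 and 7.41 in GOF and at 7.88 and 7.40 in control papillomas, and Itgav had higher GOF values. In carcinoma the log2 fold changes of Itga3, Itga6 and Itgb4 were 0.03, -0.13 and -0.25, with limma adjusted p of 0.978, 0.883 and 0.788.

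The platelet chemokine gene Ppbp was below background on all papilloma arrays, and in carcinoma it stood at 10.27 and 8.86 in KO and at 9.71 and 11.11 in control tumours. Gp9, also a platelet gene, stood at 5.63 and 5.61 in KO and at 5.85 and 5.61 in control carcinomas. Itga2b stood at 6.64 and 6.37 in KO and at 6.64 and 6.46 in control carcinomas. The other measured platelet genes were lower there. Pf4, at 5.17 and 4.67 in KO and at 4.64 and 6.08 in control carcinomas, was above background on 1 array of each group. Gp1bb was below background on every carcinoma array.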
